A study of Mus musculus with 6 samples.

Results

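The 10 genes described here encode the phototransduction machinery of cone photoreceptors, the cells of daylight and colour vision. They were chosen by symbol: the opsins Opn1sw and Opn1mw, the arrestin Arr3, the transducin subunits Gnat2, Gnb3 and Gngt2, the phosphodiesterase subunits Pde6c and Pde6h, and the channel subunits Cnga3 and Cngb3. Each had exactly 1 probe set annotated with its symbol alone, so 10 of the 22180 genes with such a probe set were taken. All 10 were at a log2 value of at least 5 on all 6 arrays.

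Whole retinas of male mice at postnatal day 17 were measured on Affymetrix mouse gene arrays, and both eyes of an animal were pooled into 1 sample. The 3 knockout samples (knockout 1 to 3) had the genotype Chx10Cre+/-;Atrx flox/y and the 3 wildtype samples (wildtype 1 to 3), from littermates, had Chx10Cre-/-;Atrx flox/y. Every animal of both groups thus carried a floxed allele of Atrx, a chromatin remodeller gene on the X chromosome, and only the knockouts carried the Cre transgene, so the transgene itself and the loss of Atrx cannot be told apart. Chx10 is active in retinal progenitors, from which cones also arise, and how many cones had lost Atrx was not measured. The series' design text places the height of amacrine and horizontal cell loss in these mice at this age. In whole retina, fewer cells of a type and less RNA per cell cannot be told apart.

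In a cone, light activates an opsin, the opsin activates the cone transducin, and transducin relieves the inhibition of a phosphodiesterase. The phosphodiesterase breaks down cyclic GMP, and the cyclic nucleotide-gated channel in the outer segment closes. Arrestin then shuts the opsin off. Rods use a parallel set of proteins from sister genes. Many mouse cones hold both opsins, in proportions that change from the upper to the lower retina. Cones are a small minority of mouse photoreceptors.

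Promoter windows for the members were taken from RefSeq (build GRCm38.p6), each with 250 bases before and 50 bases after the start site. Of the 10 members, 6 matched by symbol, and Cnga3 had 2 windows. Those of the opsins, Arr3 and Gnat2 are shown: Opn1sw, Arr3 and Gnat2 hold a motif described here, and Opn1mw is the other opsin. Capitals mark TAATCC or TAATCT on either strand (GGATTA or AGATTA on the strand shown), letters that the photoreceptor homeobox factors CRX and OTX2 can bind. The 2 motifs do not overlap in any window shown.
Opn1sw, chr6:29380464-29380763, minus strand: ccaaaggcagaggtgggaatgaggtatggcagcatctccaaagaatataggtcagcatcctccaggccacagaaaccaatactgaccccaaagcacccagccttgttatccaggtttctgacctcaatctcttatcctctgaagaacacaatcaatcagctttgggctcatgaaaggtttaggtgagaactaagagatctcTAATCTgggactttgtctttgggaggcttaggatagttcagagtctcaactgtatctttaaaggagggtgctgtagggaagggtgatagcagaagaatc
Opn1mw, chrX:74127216-74127515, plus strand: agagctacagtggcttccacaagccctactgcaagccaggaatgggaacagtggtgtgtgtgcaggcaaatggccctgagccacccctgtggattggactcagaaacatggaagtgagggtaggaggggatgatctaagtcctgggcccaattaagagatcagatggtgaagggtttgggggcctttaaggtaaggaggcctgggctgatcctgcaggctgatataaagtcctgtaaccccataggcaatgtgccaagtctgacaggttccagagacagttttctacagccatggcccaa
Arr3, chrX:100605247-100605546, plus strand: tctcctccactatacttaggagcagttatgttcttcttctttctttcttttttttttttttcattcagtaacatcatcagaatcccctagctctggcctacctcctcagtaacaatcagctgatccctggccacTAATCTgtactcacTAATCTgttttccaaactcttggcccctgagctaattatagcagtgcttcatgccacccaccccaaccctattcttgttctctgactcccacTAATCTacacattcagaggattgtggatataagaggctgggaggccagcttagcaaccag
Gnat2, chr3:108092816-108093115, plus strand: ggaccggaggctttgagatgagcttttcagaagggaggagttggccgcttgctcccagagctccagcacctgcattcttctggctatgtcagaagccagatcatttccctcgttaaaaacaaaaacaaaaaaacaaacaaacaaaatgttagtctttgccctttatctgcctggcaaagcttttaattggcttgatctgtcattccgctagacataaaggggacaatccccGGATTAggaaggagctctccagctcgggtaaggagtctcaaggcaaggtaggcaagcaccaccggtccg

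Arr3 held 3 copies of TAATCT in its window, Opn1sw 1 copy of TAATCT and Gnat2 1 copy of TAATCC on the opposite strand. The windows of Opn1mw and Pde6h and both windows of Cnga3 held neither. Of all 32851 RefSeq windows of the same length, 14.4% held at least 1 copy of either motif (7.06% TAATCC, 8.19% TAATCT) and 0.225% held at least 3. A match describes the letters of the window and was not tested as a site.

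Pairs of arrays had a Pearson's r of at least 0.975 over the 15619 genes tested, and array medians lay between 5.57 and 5.64. Atrx was lower on all 3 knockout arrays (8.33 to 8.72) than on the wildtype arrays (8.86 to 9.17), with a log2 change of -0.53 (limma, adjusted p = 0.115). Rod genes, which define the retina by abundance, had list means from 11.68 to 11.81 on the arrays. Knockout 2 and wildtype 1 stood apart by lens genes, whose list mean was 9.68 and 10.98 there and 5.48 to 5.96 on the other arrays. Pigment epithelium genes had list means of 9.39 ± 0.50 in knockout and 9.61 ± 0.41 in wildtype retina (SD, n = 3 per group).

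Log2 changes below are knockout minus wildtype from limma, fitted on all 15619 genes, with standard error (SE), and p-values are adjusted over all of them by the Benjamini-Hochberg method. The threshold for a call was an adjusted p of 0.05. Of the 10 members, 1 was called, Cngb3, which rose, and none was called as lower. Over all genes tested 0.826% were called, 0.48% as higher and 0.346% as lower. For 4 members the 3 knockout values did not overlap the 3 wildtype values, Cngb3 and Pde6c above and Opn1sw and Cnga3 below, against 20.3% of all genes (10.7% higher and 9.58% lower). At an unadjusted p under 0.05, 3 members passed in limma, 1 higher and 2 lower, against 13.5% of all genes (6.99% higher and 6.5% lower). The members had no common direction: 5 log2 changes lay above 0 and 5 below, with a median of -0.01 (0.00 over all genes).

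**Figure D1:**
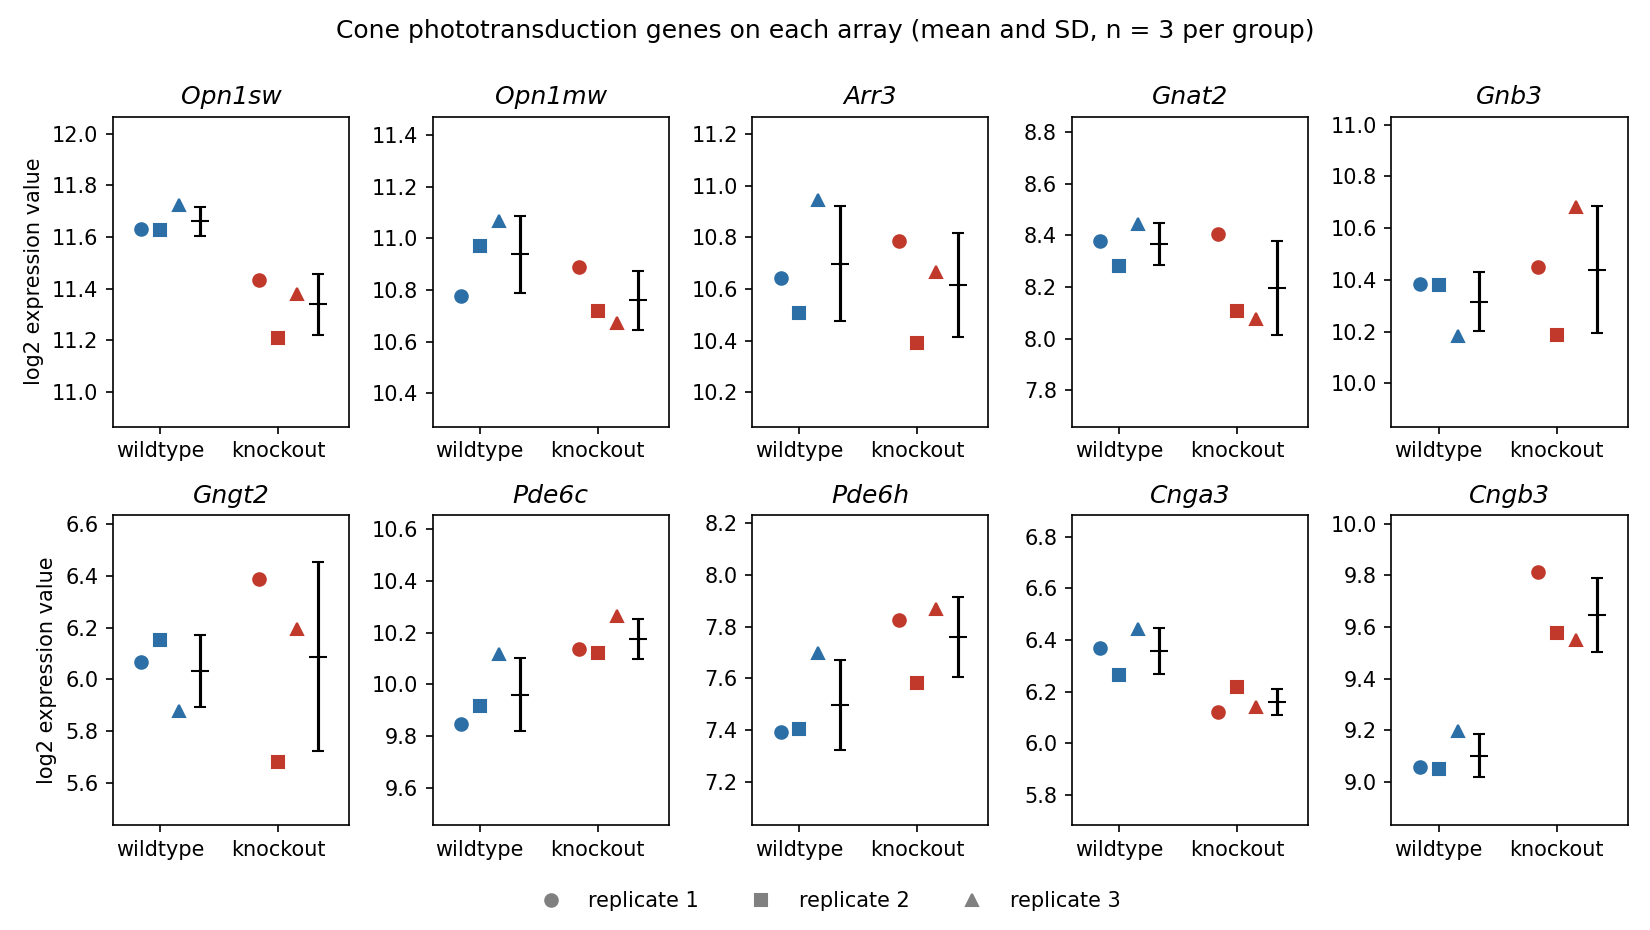
Log2 expression value of each member on each array, wildtype in blue and knockout in red, with the marker shape giving the replicate number and the black bar the mean ± SD (n = 3 per group); every panel spans the same range of log2 values. Cngb3 is separated most widely, at 9.55 to 9.81 in knockout and 9.05 to 9.20 in wildtype, and Opn1sw is lower on every knockout array.

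Opn1sw encodes the short-wavelength opsin of mouse cones. Its log2 values were 11.43, 11.21 and 11.38 on knockout 1 to 3 and 11.63, 11.63 and 11.72 on wildtype 1 to 3. All knockout values lay below all wildtype values, with knockout 2 the lowest. The means were 11.34 ± 0.12 and 11.66 ± 0.06 (SD, n = 3 per group). The log2 change of -0.32 (SE 0.09) missed the threshold (limma, adjusted p = 0.159). As a percent of the wildtype level, the 95% interval ran from -30.1% to -8.26%, not adjusted for the number of genes. An exact permutation test gave p = 0.1, and 3 arrays against 3 cannot give a smaller one. With an intensity trend and robust spread in limma the adjusted p was 0.0447, the only 1 of 17 alternative fits under the threshold. In the other 16 limma fits it ran from 0.0957 (log2 floor of 6) to 0.423 (without wildtype 2).

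Opn1mw encodes the medium-wavelength opsin. It stood at 10.89, 10.72 and 10.67 on knockout 1 to 3 and at 10.78, 10.97 and 11.07 on wildtype 1 to 3. The groups overlapped, since knockout 1 was above wildtype 1. The log2 change was -0.18 (SE 0.10, limma adjusted p = 0.494). Its 95% interval, from -24.7% to 3.93% of the wildtype value, holds both the estimate for Opn1sw and no change.

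Arr3, the cone arrestin, had log2 values of 10.79, 10.39 and 10.67 in knockout and 10.64, 10.51 and 10.94 in wildtype retina. Values of both groups were interleaved, and the log2 change was -0.08 (SE 0.14, limma adjusted p = 0.830). Its sign turned without knockout 2 (0.03), without wildtype 3 (0.04) and without knockout 2 and wildtype 1 together, the lens-rich arrays (0.0012). Its 95% interval, -24.3% to 17.7%, holds changes of either sign.

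The transducin subunits did not separate the genotypes. Gnat2, the alpha subunit that cones use, was at 8.40, 8.11 and 8.08 in knockout and at 8.38, 8.28 and 8.44 in wildtype retina. Knockout 1 lay within the wildtype range and the other knockout arrays below it. Gnat2 had a log2 change of -0.17 (SE 0.10, limma adjusted p = 0.521). Gnb3, the cone beta subunit, was at 10.45, 10.19 and 10.68 in knockout and at 10.38, 10.38 and 10.18 in wildtype retina, with overlapping groups. Its log2 change was 0.12 (SE 0.13, limma adjusted p = 0.709). The value depended on single arrays, being 0.0043 without knockout 3 and 0.25 without knockout 2. Gnb3 is also made by ON bipolar cells, whose list (10 of 12 genes tested) had means of 8.94 ± 0.08 in knockout and 9.03 ± 0.03 in wildtype retina (SD, n = 3 per group). Their part in the Gnb3 values was not tested.

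Gngt2, the cone gamma subunit, had the largest SE of the 10 members. It was at 6.39, 5.68 and 6.19 in knockout and at 6.07, 6.15 and 5.88 in wildtype retina, so that the knockout values spanned both sides of the wildtype ones. The log2 change was 0.06 (SE 0.17, limma adjusted p = 0.919), and it turned to -0.10 without knockout 1 and to -0.02 without wildtype 3. Among the members Gngt2 and Cnga3 were nearest to the log2 floor of 5, where background signal compresses differences.

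Both phosphodiesterase subunits had higher means in knockout retina, without passing the threshold. Pde6c, the catalytic subunit, was at 10.14, 10.12 and 10.26 in knockout and at 9.85, 9.92 and 10.12 in wildtype retina. The lowest knockout value, that of knockout 2, lay just above the highest wildtype value, that of wildtype 3. Pde6c had a log2 change of 0.21 (SE 0.09, limma adjusted p = 0.370). Pde6h, the inhibitory subunit, was at 7.83, 7.58 and 7.87 in knockout and at 7.39, 7.40 and 7.70 in wildtype retina, where wildtype 3 exceeded knockout 2. It had a log2 change of 0.26 (SE 0.12, limma adjusted p = 0.376). The upper ends of the 95% intervals were 34.7% for Pde6c and 44.0% for Pde6h above wildtype.

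The subunits of the cone cyclic nucleotide-gated channel had changes of opposite sign. Cngb3, the modulatory subunit, was at 9.81, 9.58 and 9.55 in knockout and at 9.06, 9.05 and 9.20 in wildtype retina. The means were 9.65 ± 0.14 and 9.10 ± 0.08 (SD, n = 3 per group). Cngb3 rose by 0.54 on the log2 scale (SE 0.10), a 1.46-fold difference with a 95% interval from 25.3% to 69.6% above wildtype. The adjusted p, 0.0490 in limma, lay close to the threshold: the call was lost without any 1 of the 6 arrays (adjusted p from 0.0666 to 0.231) and without the lens-rich arrays (0.178). On all 6 arrays it was also lost in limma with no filter on dim probe sets (adjusted p = 0.123), a second quantile normalization (0.0515), arrays centred on the median (0.0588), the lens list mean as a covariate (0.0682), all probe sets tested together (0.141) and the replicate number as a block (0.137). The log2 change itself stayed between 0.46 (without knockout 1) and 0.59 in all 17 alternative fits.

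Cnga3, the subunit that can form the channel alone, was at 6.12, 6.22 and 6.14 in knockout and at 6.37, 6.27 and 6.44 in wildtype retina. The groups did not overlap, but knockout 2 and wildtype 2 were close. Cnga3 had a log2 change of -0.20 (SE 0.08, limma adjusted p = 0.331). The difference between the 2 subunits was examined after their values had been seen. Cngb3 minus Cnga3 was 3.69, 3.36 and 3.41 on knockout 1 to 3 and 2.69, 2.79 and 2.76 on wildtype 1 to 3. The change of Cngb3 thus exceeded that of Cnga3 by 0.74 on the log2 scale, with non-overlapping groups and an exact permutation p of 0.1, the smallest possible. That outcome was fixed by the values given above, since Cngb3 was higher and Cnga3 lower on every knockout array. It therefore adds no support to the change of either gene. The difference of 0.74 ran from 0.64 to 0.81 without any single array and was 0.78 without both lens-rich ones, with its sign fixed in the same way. The 2 levels themselves come from different probe sets and are not comparable.

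**Figure D2:**
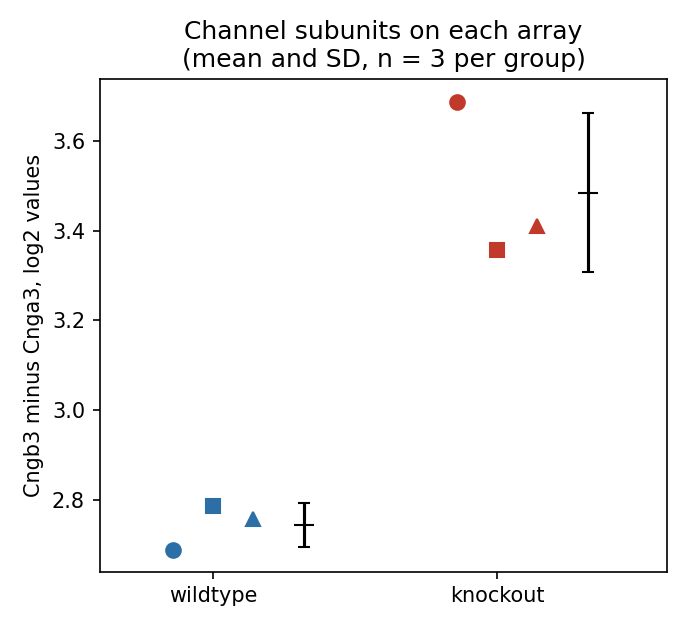
Log2 value of Cngb3 minus that of Cnga3 on each array (vertical axis) by genotype, with marker shapes for replicates 1 to 3 as circle, square and triangle, and the mean ± SD (n = 3 per group). Only the difference between genotypes can be read, 3.49 ± 0.18 in knockout and 2.74 ± 0.05 in wildtype retina.

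Rod sister genes were set beside the cone genes. No gene of the rod list was called, with 10 genes tested, 7 changes above 0, 3 below and a median of 0.09. The rod list mean was 11.76 to 11.81 on the knockout and 11.68 to 11.74 on the wildtype arrays. Over the 6 arrays Cngb3 had a Pearson's r of 0.95 with that rod mean, and Opn1sw one of -0.63. These points share the genotype difference, so the correlations are descriptions. The part of rod RNA in the Cngb3 rise was not tested, and the genotype difference of the rod mean, 0.07, was smaller than that of Cngb3.

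Among 10 cone and rod pairs, the per-array differences of 4 did not overlap between genotypes, each with an exact permutation p of 0.1, the smallest possible. The cone genes of these 4 pairs, Cngb3, Cnga3, Pde6c and Slc24a2, each had non-overlapping groups by themselves. The pairs thus largely restate those genes and are not separate support. Pde6c entered the pairs with Pde6a and with Pde6b. Of single genes 20.3% did not overlap, and the share among differences of 2 genes was not computed. The log2 change of Cngb3 minus that of Cngb1, the rod channel's modulatory subunit, was 0.44 (0.54 against 0.10). For Cnga3 against Cnga1, the rod channel's alpha subunit, the difference was -0.33 (-0.20 against 0.13). Cnga3 was lower and Cnga1 higher on every knockout array, which fixed the separation of this pair. For Pde6c against Pde6b, a catalytic rod subunit, it was 0.23 (0.21 against -0.02). For Slc24a2, a sodium-calcium exchanger listed here with the cone genes, against Slc24a1, the exchanger of rods, it was -0.16 (-0.35 against -0.19). The other 6 pairs overlapped: Pde6c against Pde6a (0.11, exact permutation p = 0.2), Pde6h against Pde6g (0.18, p = 0.3), Gnb3 against Gnb1 (0.10, p = 0.6, and -0.03 without knockout 3), Gnat2 against Gnat1 (-0.16, p = 0.2), Arr3 against Sag (-0.21, p = 0.4) and Gngt2 against Gngt1 (-0.29, p = 0.2). Gngt1 itself, the rod gamma subunit, had a log2 change of 0.35 (SE 0.08, limma adjusted p = 0.103).

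**Figure D3:**
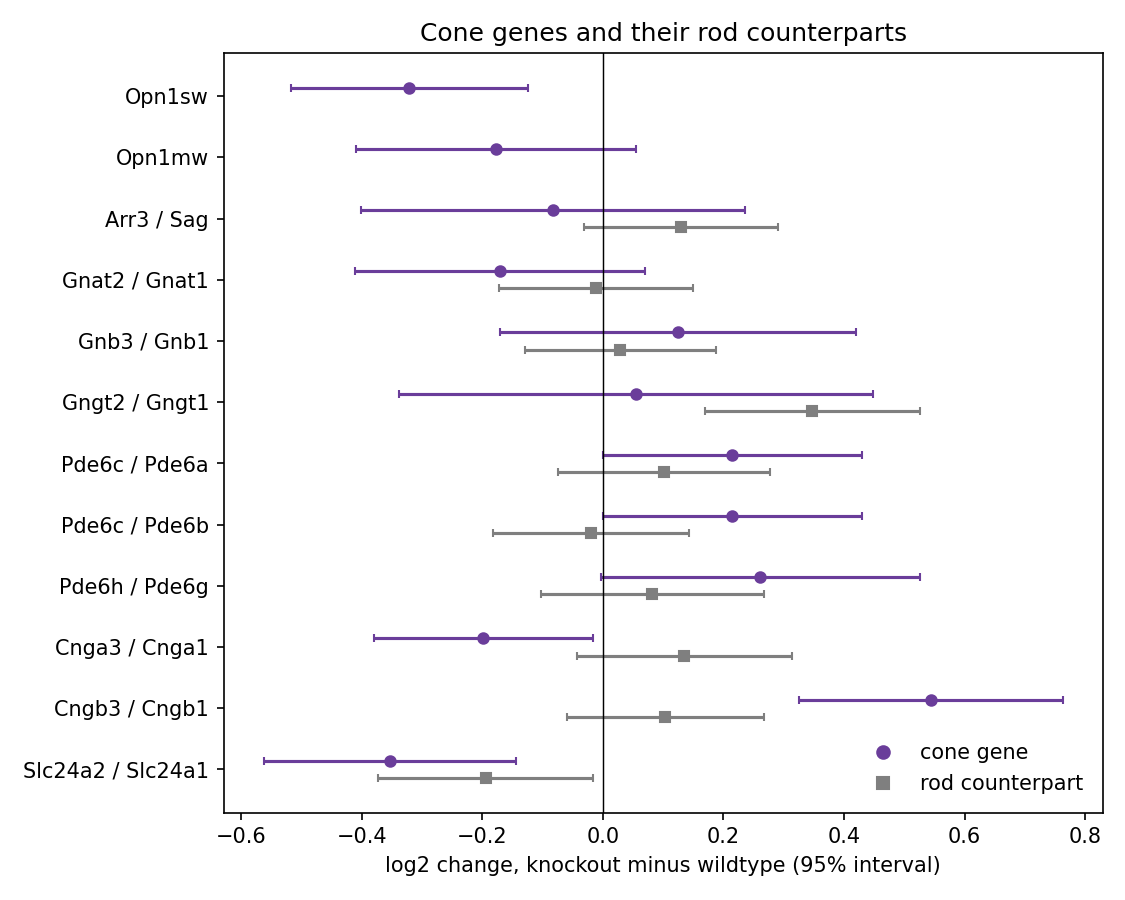
Log2 change, knockout minus wildtype, of each cone gene (purple circles) and its rod counterpart (grey squares), with 95% intervals from limma (3 arrays per group) that are not adjusted for the number of genes. The intervals of Cngb3 and Cngb1 do not overlap, and the opsins are shown alone.

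The list of other cone genes leaned downward by value, with none of 6 called and 5 of 6 changes below 0 (median -0.21). The part of other retinal cells in these values was not tested. Slc24a2 was at 7.26, 7.46 and 7.19 in knockout and at 7.60, 7.69 and 7.68 in wildtype retina, a log2 change of -0.35 (SE 0.09, limma adjusted p = 0.145). Rxrg, a nuclear receptor needed for the opsin pattern of cones, had a log2 change of -0.32 (SE 0.09, limma adjusted p = 0.169) with non-overlapping groups. Kcne2, a potassium channel subunit, had one of -0.25 (SE 0.07, limma adjusted p = 0.195). Thrb, the thyroid hormone receptor that directs medium-wavelength opsin, went the other way at 0.22 (SE 0.08, limma adjusted p = 0.296). Sall3 (-0.17) and Ccdc136 (-0.07) overlapped between genotypes.

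Of 15 phototransduction genes that rods and cones share, none was called, 11 changes lay above 0 and 4 below (median 0.10). Guca1b, a calcium sensor of guanylate cyclase, had the lowest, at 10.45, 9.77 and 9.97 in knockout and 10.74, 10.84 and 10.83 in wildtype retina. Its log2 change of -0.74 (SE 0.16) missed the threshold (limma, adjusted p = 0.0906), and its groups did not overlap. Aipl1, the chaperone of phosphodiesterase, was at 0.22, Rd3 at 0.22 and the opsin kinase Grk1 at 0.18, with limma adjusted p-values from 0.254 to 0.314. Photoreceptor transcription factors (8 of 9 tested, none called, 6 above 0) had a median of 0.13. Samd7, a repressor in rods, was at 0.52 (limma adjusted p = 0.0552), Neurod1 at 0.32, Otx2 at 0.17 and Prdm1 at 0.16. The rest of this list moved less: Crx at 0.09, Mef2d at 0.02, Nrl at -0.04 and Esrrb at -0.10 (limma adjusted p from 0.594 to 0.955).

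**Figure D4:**
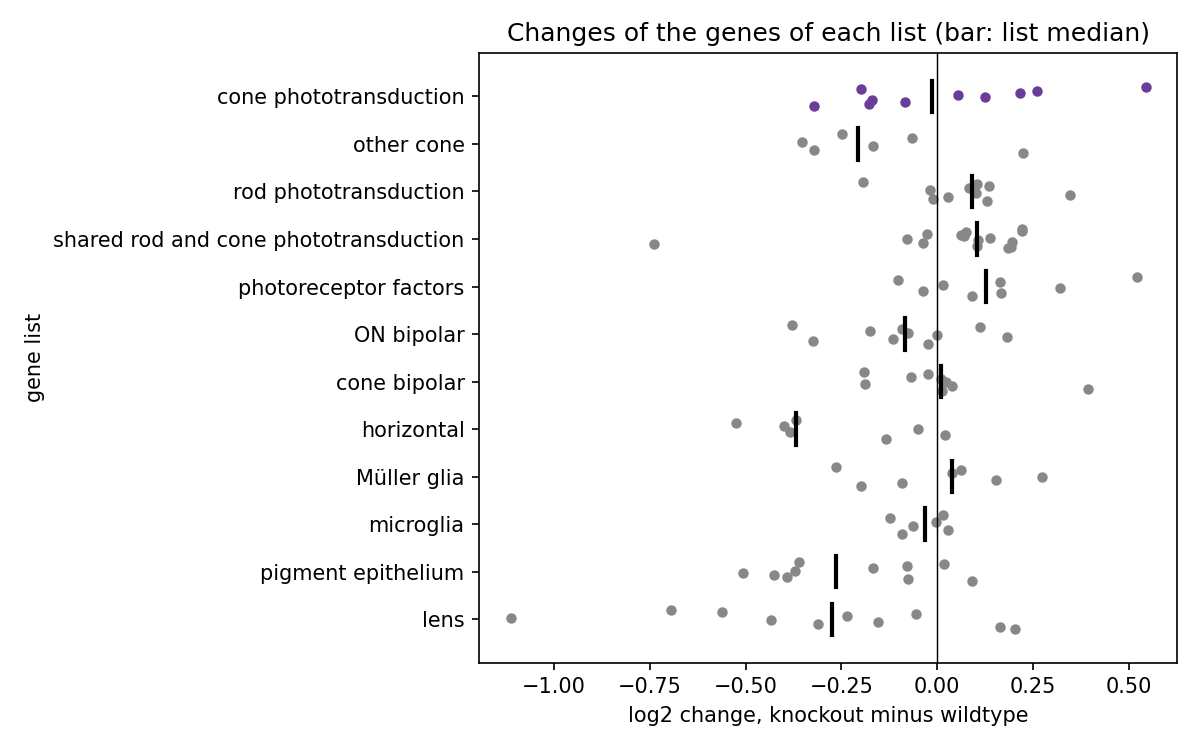
Log2 change, knockout minus wildtype, of every tested gene (points) of each gene list (rows), with the list median as a black bar and the cone phototransduction genes in purple. The members spread from -0.32 to 0.54 around a median of -0.01.

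None of the lists for cells next to cones or for other tissue had a called gene. The list for horizontal cells, which contact cones, had 6 of 7 tested changes below 0 (median -0.37). Onecut1 was at -0.38 (limma adjusted p = 0.0549), Tfap2b at -0.52, Prox1 at -0.40 and Slc32a1 at -0.37. The rest of this list moved less, with Lhx1 at -0.13, Onecut2 at -0.05 and Calb1 at 0.02 (limma adjusted p from 0.681 to 0.955). The part of amacrine cells in these values was not tested. Cone bipolar genes had a median of 0.01 over 9 genes, with Scgn at 0.39, Irx6 and Tacr3 at -0.19 each and Neto1 at -0.07. ON bipolar genes had a median of -0.09, with Prkca at -0.38, Nyx at 0.18, Rgs11 at -0.18 and Isl1 at 0.11. Müller glia (median 0.04 over 7 genes) included Dkk3 at -0.26, Rlbp1 at -0.20, Aqp4 at 0.27 and Slc1a3 at 0.15. Microglial genes (median -0.03 over 6) lay between -0.12 and 0.03. Pigment epithelium (median -0.26 over 10) and lens genes (median -0.27 over 10) varied too widely between arrays to separate the genotypes.

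Within the members the arrays followed shared patterns. Over the 6 arrays Opn1sw, Opn1mw, Arr3 and Gnat2 correlated pairwise with Pearson's r from 0.56 to 0.76, and Pde6c with Pde6h at 0.93. Cngb3 correlated at 0.76 with Pde6c and 0.79 with Pde6h, and at -0.79 with Cnga3 and -0.75 with Opn1sw. With each genotype's mean removed, the r of Pde6c and Pde6h was 0.86, while that of Cngb3 and Opn1sw turned to 0.70 and that of Cngb3 and Cnga3 to 0.12. Positive values fell as well, for Cngb3 and Pde6c to 0.22 and for Opn1sw and Cnga3 from 0.75 to -0.14, while Gnat2 and Cngb3 went from -0.30 to 0.96. Values over 6 arrays thus hold the genotype difference beside the spread within groups. Knockout 2, a lens-rich array, was the lowest of the 6 for Opn1sw, Arr3 and Gngt2, and it had the lowest mean over the 10 members (8.98, against 9.05 to 9.23 on the other arrays).

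**Figure D5:**
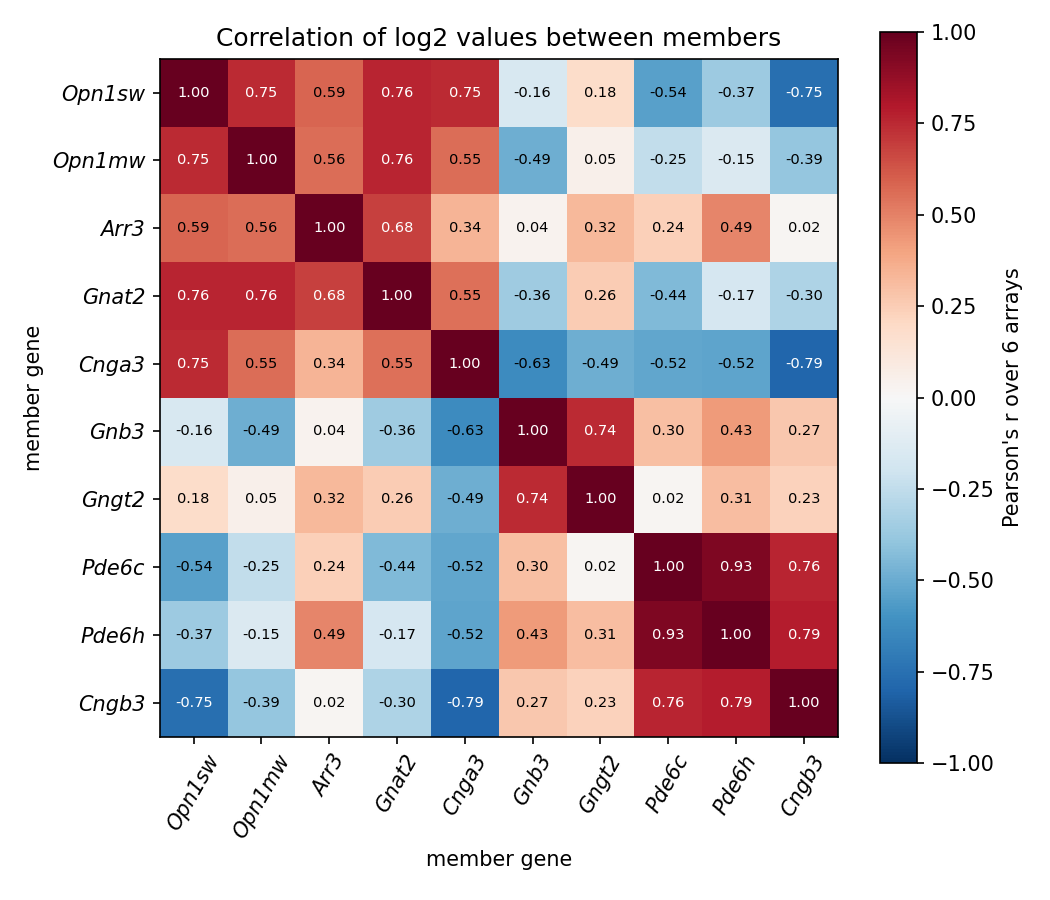
Pearson's r between the log2 values of each pair of members (both axes) over all 6 arrays, from -1 in blue to 1 in red. Pde6c, Pde6h and Cngb3 form one group of positive values and Opn1sw, Opn1mw, Arr3, Gnat2 and Cnga3 another, with the genotype difference included.

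Genes were ranked by likeness to a member after predicted or unnamed loci and small RNA genes were left out. Of the other genes tested, Stk17b, a serine/threonine kinase gene, had the pattern over 6 arrays most like that of Cngb3 (Pearson's r = 0.995). Next were Rbm48 (0.993) and Med6 (0.993). Stk17b stood at 8.29, 8.04 and 7.96 in knockout and 7.16, 7.12 and 7.31 in wildtype retina (log2 change 0.90, limma adjusted p = 0.00966). Rbm48 had a log2 change of 0.28 and Med6 of 0.32. With a threshold of 0.9, 503 genes (3.22%) were as alike to Cngb3. For Opn1sw the nearest were Cdkn2a (0.993), Crhbp (0.990) and Slc39a14 (0.989), with log2 changes of -0.15, -0.27 and -0.33, and 166 genes (1.06%) passed 0.9. Both counts at 0.9 include the loci left out of the ranking. All these values describe the 6 arrays, which share the genotype difference.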

How the data were processed

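RNA of 3 knockout and 3 wildtype samples, each the pooled retinas of both eyes, was measured on Affymetrix arrays from 100 ng each. The authors deposited 1 log2 value per probe set and array, computed with RMA per the submitters' processing notes: background correction, quantile normalization and summary of probes. Neither the RMA version nor a genome build is given in the sources used. Of 41345 probe sets, 23521 had a single symbol in the platform annotation. Probe sets below a log2 value of 5 on more than 3 of 6 arrays were left out, and the brightest was kept per gene. This gave 15619 genes.

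The test was limma 3.58.1 (R 4.3.3) (genotype only, 2-sided, called at an adjusted p under 0.05), with a 2-sided exact permutation test for single values and pair differences. The median SE was 0.095. The procedure was tested on simulated data with 100 changed genes. It recovered 46 of them at a log2 change of 0.5 and 89 at a change of 1, with 6 false calls each time. Quantile normalization hides a change in total RNA. The labels give each sample as both eyes of a mouse without naming the animal, so p-values measure the spread between these samples. Members and lists were chosen with earlier results of these data known. Named genes were Atrx, the members, their rod counterparts, the other cone genes, up to 4 genes per other list with the smallest unadjusted p, and the 3 genes most like the member with the largest rise or fall. Predicted or unnamed loci and small RNA genes were left out when the most alike genes were picked. Genes of the horizontal cell, photoreceptor factor and pigment epithelium lists were also named beyond this rule. Promoters were read from RefSeq windows. The alternatives were other filters, normalizations, variance models and probe set rules, a block and arrays left out.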

Additional observations from a re-analysis of the deposited data

How the results depend on the processing

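The count of members called, 1 (Cngb3) with the main settings, was 1 with a log2 floor of 6, with array weights and with probe sets of a gene averaged, and 2 with an intensity trend and robust spread, where Opn1sw joined. It was 0 with no filter on dim probe sets, a second quantile normalization, arrays centred on the median, the lens list mean as a covariate, all probe sets tested together, knockout 2 and wildtype 1 left out, a fold of at least 1.5 required, and without each single array (0 to 0). Limma's adjusted p of Cngb3 ran from 0.00928 to 0.231. At an unadjusted p under 0.05 in limma, 3 members passed with the main settings. With the replicate block the count was 0 (Cngb3 adjusted p = 0.137), and the calls over all genes went from 129 to 68. Deviations from the group means correlated at -0.27, -0.38 and -0.06 between same-numbered arrays, so no pairing by replicate number was seen. With 3 arrays per group, and lens genes high on knockout 2 and wildtype 1, these correlations cannot exclude a pairing. The changes of Arr3 and Gngt2 reversed: Arr3 to 0.0012 without both lens-rich arrays. Without single arrays Arr3 ran from -0.18 to 0.0398 (above 0 without knockout 2 or wildtype 3) and Gngt2 from -0.10 to 0.26 (below 0 without knockout 1 or wildtype 3). The other 8 members kept their direction in all 17 fits. Without single arrays the cone minus rod difference of Gnb3 and Gnb1 reversed (-0.0299 without knockout 3 to 0.24 without knockout 2). The other overlapping pairs moved without a change of sign: Arr3 and Sag from -0.31 to -0.09, Gngt2 and Gngt1 from -0.40 to -0.14, Gnat2 and Gnat1 from -0.26 to -0.09, Pde6c and Pde6a from 0.07 to 0.15, and Pde6h and Pde6g from 0.11 to 0.27. With 3 arrays per group, differences near the median SE cannot be resolved, and differences well above it can also miss the threshold. With the main settings Opn1sw missed it at a log2 change of -0.32 (limma adjusted p = 0.159). Cngb3 only just passed at 0.54 (limma adjusted p = 0.0490). For the shifts between settings the cause was not tested, except that leaving out arrays lowers their number. The Cngb3 and Cnga3 comparison was chosen after seeing the data.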
